A study of Rattus norvegicus with 325 samples.

Results

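The genes described here are the 8 genes of MHC class II antigen presentation whose symbols were found in the rat muscle count tables: RT1-Ba, RT1-Bb, RT1-Da, RT1-Db1, RT1-DMa, RT1-DMb, Cd74 and Ciita. They were chosen by symbol, out of 17315 distinct gene symbols, and all 8 were present and passed the filter on low counts in every muscle. RNA was sequenced from whole pieces of 4 skeletal muscles of male, outbred Sprague Dawley rats: the diaphragm, the breathing muscle, and the gastrocnemius, soleus and tibialis anterior of the lower leg. The rats were untreated and were 6, 9, 12, 18, 21, 24 or 27 months old, and the question was how gene expression changes with age in each muscle. There were 83 libraries from the diaphragm, 73 from the gastrocnemius, 84 from the soleus and 85 from the tibialis anterior, and a muscle and age had between 9 and 13. Every age group was collected on a single day, so age and collection day cannot be told apart, and the libraries of different ages came from different rats. The libraries also fall in several number series, and what a series stands for is not known. Gastrocnemius has a series of its own, so its differences from other muscles cannot be told apart from the series. In the other muscles the libraries of 12 months belong to another series than those of 18 months. In diaphragm and soleus they also differ in series from those of 6, 9, 24 and 27 months.

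MHC class II molecules carry peptides from proteins that a cell has taken up to the cell surface, where CD4 T cells read them. Each molecule is a pair of an alpha and a beta chain; in the rat, RT1-Da and RT1-Db1 encode the chains of the RT1-D molecule (the counterpart of human HLA-DR), and RT1-Ba and RT1-Bb those of RT1-B (the counterpart of HLA-DQ). Cd74 is the invariant chain, which holds the peptide groove closed and guides the new molecule to the endosome. RT1-DMa and RT1-DMb form the RT1-DM molecule, which exchanges the remnant of Cd74 for an antigen peptide. Ciita, the class II transactivator, is the coactivator that switches on the whole set; it binds no DNA itself but docks on the factors RFX, CREB and NF-Y at the conserved X and Y boxes of class II promoters. In skeletal muscle, the cells best known for class II are resident macrophages and dendritic cells rather than the muscle fibres.

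Promoter windows are shown because these boxes are the known link between the genes and Ciita. RefSeq windows of 300 bases, 250 before the gene start and 50 after it, existed in the GRCr8 build for 6 of the 8 genes. In the lines below, read 5′ to 3′ along each gene's own strand, capitals mark every match to the X box core ACNGATG or to the Y box core GATTGG on either strand, which do not overlap; the letters were chosen with these windows in view. The windows are chr20:4515165-4515464 on the + strand for RT1-Da, chr20:4560113-4560412 on the - strand for RT1-Db1, chr20:4576807-4577106 on the + strand for RT1-Ba, chr20:4604069-4604368 on the - strand for RT1-Bb and chr20:4712286-4712585 on the - strand for RT1-DMa.
RT1-Da: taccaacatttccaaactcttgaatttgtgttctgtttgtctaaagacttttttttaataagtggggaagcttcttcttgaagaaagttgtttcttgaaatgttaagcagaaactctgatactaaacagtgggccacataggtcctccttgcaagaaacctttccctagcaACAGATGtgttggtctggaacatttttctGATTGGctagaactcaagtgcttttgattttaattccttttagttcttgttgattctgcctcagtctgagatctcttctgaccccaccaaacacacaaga
RT1-Db1: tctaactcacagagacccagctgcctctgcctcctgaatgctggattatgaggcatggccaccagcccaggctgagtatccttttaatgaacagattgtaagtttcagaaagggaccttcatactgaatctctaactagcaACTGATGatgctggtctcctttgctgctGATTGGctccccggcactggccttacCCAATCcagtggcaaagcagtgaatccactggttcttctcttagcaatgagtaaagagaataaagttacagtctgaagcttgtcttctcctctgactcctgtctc
RT1-Ba: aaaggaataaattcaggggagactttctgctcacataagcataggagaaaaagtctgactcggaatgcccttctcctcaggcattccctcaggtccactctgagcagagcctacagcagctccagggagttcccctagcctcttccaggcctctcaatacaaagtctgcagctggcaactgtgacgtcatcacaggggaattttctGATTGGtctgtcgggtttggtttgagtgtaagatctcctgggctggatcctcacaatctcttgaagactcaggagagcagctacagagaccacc
RT1-Bb: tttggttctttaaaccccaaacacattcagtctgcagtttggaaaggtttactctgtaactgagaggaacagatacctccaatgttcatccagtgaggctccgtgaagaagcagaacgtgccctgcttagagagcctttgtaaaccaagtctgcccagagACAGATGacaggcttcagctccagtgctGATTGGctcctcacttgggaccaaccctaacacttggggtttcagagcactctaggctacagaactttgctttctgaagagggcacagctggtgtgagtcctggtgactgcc
RT1-DMa: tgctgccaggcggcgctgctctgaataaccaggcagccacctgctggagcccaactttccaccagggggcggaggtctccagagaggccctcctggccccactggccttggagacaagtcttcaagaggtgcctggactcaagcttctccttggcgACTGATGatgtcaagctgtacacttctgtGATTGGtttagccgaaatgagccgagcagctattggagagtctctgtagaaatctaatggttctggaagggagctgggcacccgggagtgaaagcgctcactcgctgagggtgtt

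The X box core was present in 10.2% of the 33469 windows of the RefSeq table and in 4 of the 6 windows here, those of RT1-Da, RT1-Db1, RT1-Bb and RT1-DMa. The Y box core was present in 14.8% of all windows and in 5 of the 6, and both together in 1.41% of all windows and in 4 of the 6. In all 4 the X box came first: the Y box began 29 bases after the start of the X box in RT1-Da and RT1-DMa, and 28 bases after it in RT1-Db1 and RT1-Bb. RT1-Ba held the Y box alone by these letters, and the Cd74 window held neither. RT1-Db1 had another Y box core on the opposite strand, as the capitals downstream show. These are matches of letters in a reference genome, and the rats sequenced were of another, outbred strain. Because the letters were chosen with these windows in view, the shares cannot test whether the boxes are more frequent here.

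Libraries held between 17.6 M and 85.3 M counted reads (M, a factor of 1e+06), with a median of 31.9 M. The 8 genes were counted at very different depths: Cd74 had 754 to 13953 reads in a library and RT1-Da 239 to 4940, whereas the lowest library had 8 reads of RT1-Ba, 19 of Ciita and 36 of RT1-DMa. RT1-Bb had no read in 3 libraries, all of soleus, which allows a level of up to 0.0987, 0.105 and 0.144 CPM (counts of the gene for each 1 M counted reads of the library) there, for counting error alone. RT1-DMa and RT1-DMb stand on 2 lines each in the tables, which were equal in 322 and 250 libraries out of all those sequenced, so the sum of the lines was used and its absolute level is uncertain. For RT1-DMb the lines were unequal in 75 libraries, and in 47 of these 1 line was at 0. Differences of RT1-DMb between libraries are therefore uncertain too. As a check of the tissue, 10 genes of the contractile fibre summed to between 48920 and 225800 CPM in the libraries of 6 and 27 months, and the summed level of the 8 class II genes lay between 55.79 and 376.7 CPM there.

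Before the effect of age, a split among the libraries has to be described, because it touches RT1-Ba and RT1-Bb. The ratio of RT1-Ba to RT1-Da reads within a library, on the log2 scale, ran from -5.38 to -0.94, but no library lay between -3.07 and -2.09. Above this empty range were 67 libraries and below it 258. The ratio of RT1-Bb to RT1-Da had its own empty range, from -3.36 to -2.54, and the libraries above it were again those 67, with no library above 1 empty range and not the other. None of the 93 libraries of 6 or 9 months was among the 67; all came from the 232 libraries of 12 months or more. In each of diaphragm, soleus and tibialis anterior, 2 libraries of 12 months, 3 of 18, 5 of 21, 3 of 24 and 5 of 27 months lay above. In gastrocnemius the counts were 2, 3, 2, 2 and 4. Libraries above the range lay at -1.35 or higher in diaphragm, between -1.59 and -0.94 in soleus and -1.61 and -1.19 in tibialis anterior, but between -2.09 and -1.79 in gastrocnemius, so there the split was narrower.

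**Figure D1:**
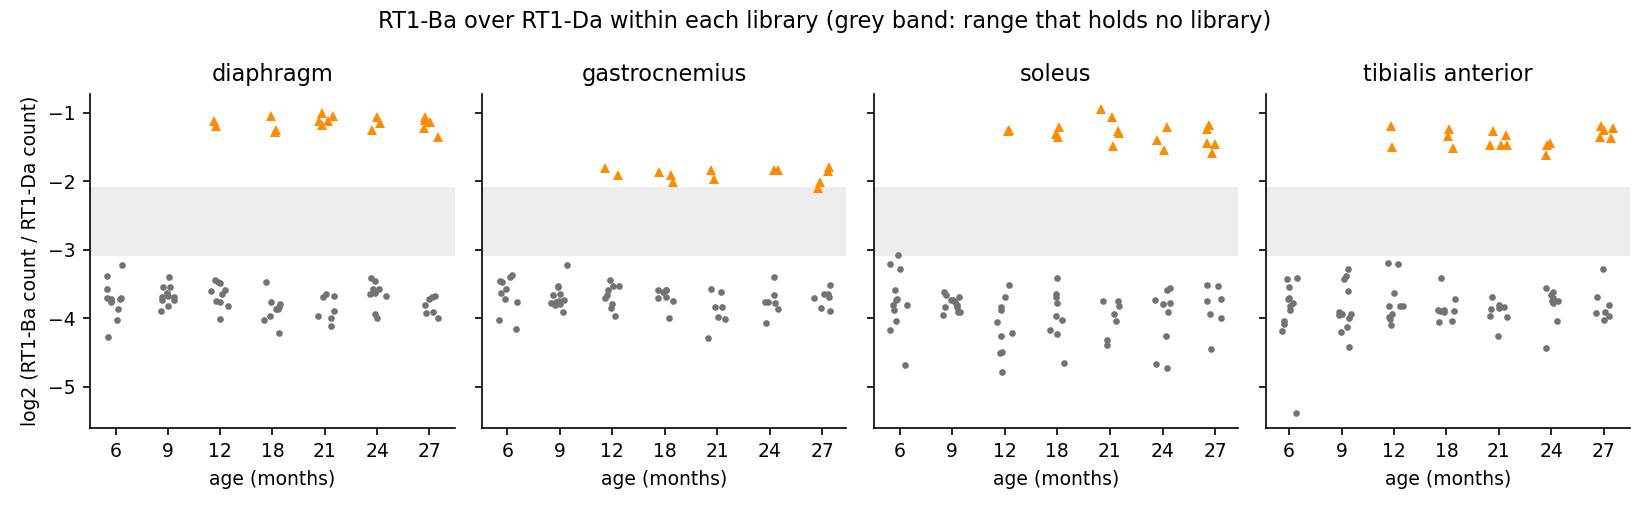
Log2 ratio of RT1-Ba to RT1-Da counts in each library (vertical axis) by age in months (horizontal axis), 1 panel per muscle; triangles mark the 67 libraries above the grey band and circles the 258 below it. The band from -3.07 to -2.09 is empty in all 4 muscles, and triangles occur from 12 months on.

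The split was visible in other members. All 67 libraries lay below the median of all libraries in RT1-Db1 over RT1-Da: they ran from -3.37 to -2.29 on the log2 scale, and the other 258 from -2.66 to -1.53. For RT1-DMb over RT1-DMa, 60 of the 67 lay above the median, with the limit that the lines of RT1-DMb were unequal in 75 libraries. The balance of Cd74 and RT1-Da did not follow it, with 37 of the 67 above the median in Cd74 over RT1-Da, nor did that of Ciita and Cd74, with 36. Relative to RT1-Da, both chains of RT1-B were thus counted more and RT1-Db1 less in these libraries. At 18, 24 and 27 months the libraries above the range carried the same replicate numbers in diaphragm, soleus and tibialis anterior: 3, 3 and 5 numbers were above in both muscles of each pair and none in 1 muscle alone. At 21 months this held less well. For diaphragm and tibialis anterior 2 numbers were shared and 6 were in 1 muscle alone, for soleus and tibialis anterior 3 and 4, and for diaphragm and soleus 4 and 2. At 12 months these were 2 and 0, 1 and 2, and 1 and 2 in the same order of pairs. Between diaphragm and gastrocnemius 3 numbers over all ages were shared and 22 were above in 1 muscle alone. Class II chain genes are among the most variable genes between individuals of an outbred strain, and the reads of all rats were aligned to 1 reference; whether this, or anything else, set the 67 libraries apart was not tested. The change of each of RT1-Ba, RT1-Bb, RT1-Db1 and RT1-DMb from 6 to 27 months is therefore given with and without them. That choice was made after seeing the data. It leaves libraries out by their RT1-Ba and RT1-Bb reads, which cuts the spread of these genes. Tests of RT1-Ba and RT1-Bb without the 67 therefore cannot decide on a change, and their values are a description.

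**Figure D2:**
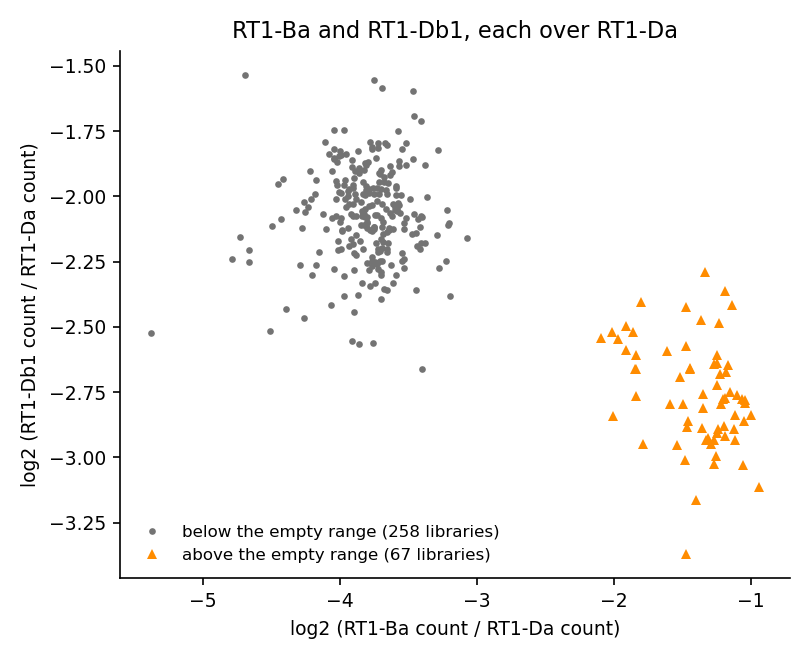
Log2 ratio of RT1-Ba to RT1-Da counts (horizontal axis) against that of RT1-Db1 to RT1-Da (vertical axis), 1 point per library over all muscles and ages. The 67 libraries above the empty range (triangles) lie to the lower right, between -3.37 and -2.29 on the vertical axis; the 258 others (circles) lie between -2.66 and -1.53.

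Class II genes rose with age in the 3 leg muscles, all 8 of them in tibialis anterior, and none was called in diaphragm. A gene is called here when its adjusted p (limma-voom, Benjamini-Hochberg over all genes tested) is below 0.05 and its change exceeds 1.5-fold. At 27 against 6 months, all 8 genes were called higher in tibialis anterior, where 17.2% of all genes tested were called higher. In gastrocnemius 4 of 8 were called higher (15.1% of all genes), in soleus 4 of 8 (9.21%) and in diaphragm 0 of 8 (3.27%); 1 diaphragm member, RT1-DMb, had an adjusted p below 0.05 but changed by less than 1.5-fold. In diaphragm, edgeR's quasi-likelihood test and DESeq2 each called 2 members higher, and 2 members, RT1-Ba and RT1-DMb, had an unadjusted p below 0.05 in limma-voom. The shares of all genes that pass by these rules are not given here, so these counts cannot be set against them. No member was called lower at any age in any muscle. Of all genes, 10.4% were called lower at 27 against 6 months in tibialis anterior, 7.76% in gastrocnemius, 5.78% in soleus and 4.25% in diaphragm. Without the 67 libraries RT1-Bb was called lower in diaphragm at 18 months (log2 change -1.04, 0.17 with them). Without the 67 libraries the counts at 27 months were 7 in tibialis anterior, 6 in gastrocnemius, 5 in soleus and 0 in diaphragm. Those of the leg muscles include RT1-Ba and RT1-Bb, by which the libraries were chosen. The median log2 change of the 8 genes was 1.33 in tibialis anterior, 0.68 in gastrocnemius, 0.54 in soleus and 0.18 in diaphragm, beside medians over all genes of 0.02, 0.04, 0.02 and 0.0026. In whole muscle, more cells of a type and more RNA per cell cannot be told apart.

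**Figure D3:**
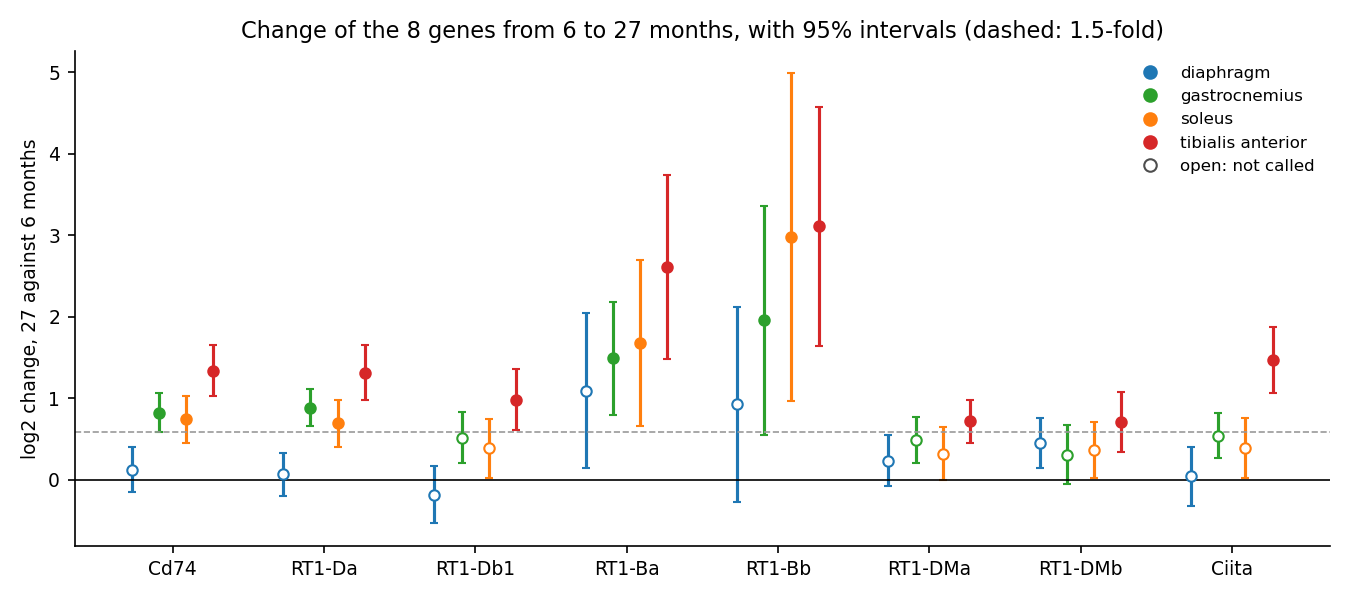
Log2 change from 6 to 27 months (vertical axis) of the 8 genes (horizontal axis) in 4 muscles, with 95% intervals from limma-voom; filled points are called (adjusted p below 0.05 and over 1.5-fold, dashed line), open points are not. All 8 points of tibialis anterior are filled, 4 of gastrocnemius, 4 of soleus and none of diaphragm.

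Cd74, the invariant chain, was the most deeply counted member. In tibialis anterior its level, in log2 CPM, ran from 5.17 to 5.98 with a median of 5.59 over the 12 libraries of 6 months, and from 6.05 to 7.39 with a median of 6.98 over the 12 of 27 months. Every old library thus lay above every young one. The log2 change was 1.34 (SE 0.16, adjusted p = 9.7e-12), 2.53-fold. In gastrocnemius the level went from 6.12 to 6.74 (median 6.27) in the 10 libraries of 6 months to 6.41 to 7.55 (median 7.23) in the 11 of 27 months, and 10 of the 11 old libraries lay above the highest young one (log2 change 0.82, SE 0.12, adjusted p = 3.4e-08). In soleus the ranges were 6.06 to 7.28 and 6.92 to 7.98, with medians of 6.86 and 7.50 (log2 change 0.74, SE 0.15, adjusted p = 1.4e-05). In diaphragm they overlapped throughout, 6.65 to 7.57 at 6 months and 6.52 to 7.70 at 27 months, with medians of 7.09 and 7.26, and the log2 change of 0.12 had a 95% interval from -0.15 to 0.40.

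**Figure D4:**
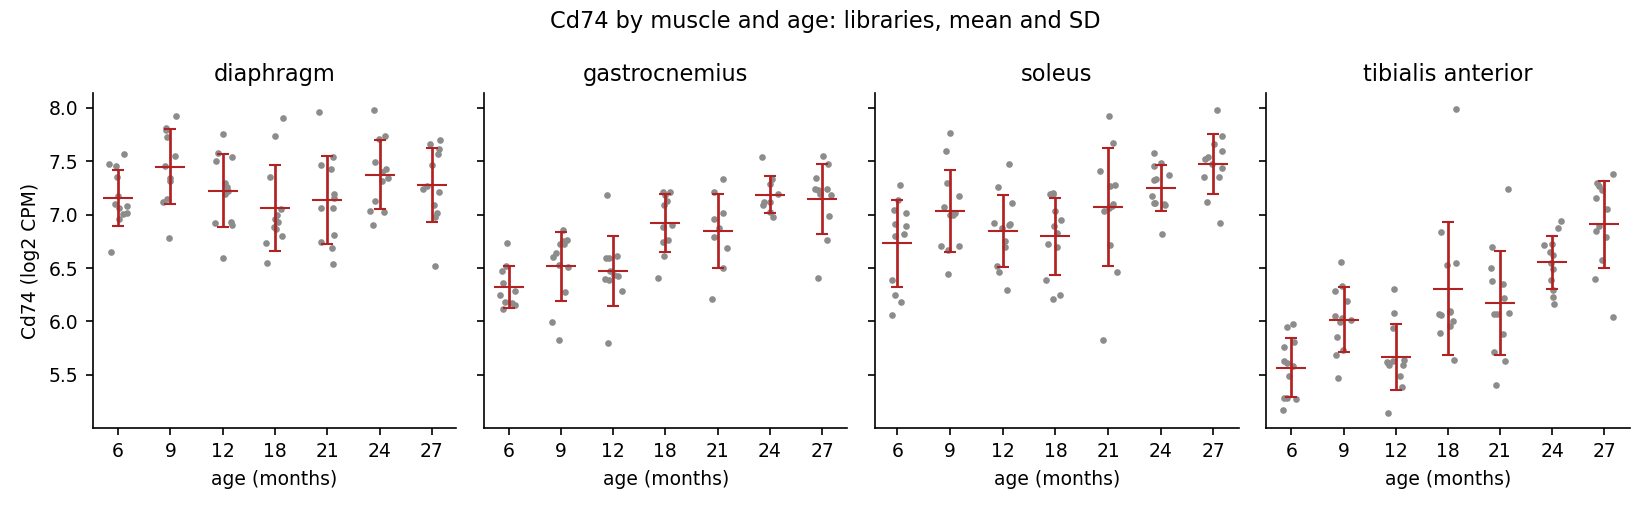
Cd74 in log2 CPM (vertical axis) by age in months (horizontal axis), 1 panel per muscle; grey points are libraries, and the red dash and bar are the mean and SD of a group. The mean of tibialis anterior goes from 5.57 at 6 months to 6.91 at 27 months, while that of diaphragm goes from 7.16 to 7.28.

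RT1-Da, the alpha chain of RT1-D, moved beside Cd74. In tibialis anterior it ran from 3.36 to 4.35 log2 CPM at 6 months (median 3.89) and from 4.27 to 5.64 at 27 months (median 5.30), and 11 of the 12 old libraries lay above the highest young one. Its log2 change there was 1.31 (SE 0.17, adjusted p = 1.5e-10). In gastrocnemius the change was 0.88 (SE 0.12, adjusted p = 8.6e-10), from a median of 4.79 to one of 5.83, and in soleus 0.69 (SE 0.15, adjusted p = 5.1e-05), from 5.22 to 5.75. In diaphragm the medians were 5.30 and 5.37, and none of the 12 old libraries lay above the highest young one (log2 change 0.06, 95% interval -0.20 to 0.33). Without the 67 libraries the 4 changes were 1.39, 0.94, 0.74 and 0.24.

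RT1-Db1, the beta chain partner, was called in tibialis anterior alone, with a log2 change of 0.98 (SE 0.19, adjusted p = 3.9e-06). Its levels there were 1.00 to 2.47 at 6 months (median 1.89) and 1.55 to 3.70 at 27 months (median 2.89), with 9 of 12 old libraries above the highest young one. In gastrocnemius it changed by 0.52 (adjusted p = 0.004), short of 1.5-fold. In soleus the value was 0.39 (adjusted p = 0.0694) and in diaphragm -0.18 (adjusted p = 0.415). Without the 67 libraries, in which it was counted low, the log2 changes were 1.38 in tibialis anterior, 0.80 in gastrocnemius and 0.76 in soleus, all called, and 0.31 in diaphragm (adjusted p = 0.0919).

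RT1-Ba and RT1-Bb, the chains of RT1-B, had the highest fitted changes of the 8 genes, and these rested in part on the 67 libraries. In tibialis anterior, RT1-Ba ran from -1.87 to 0.78 log2 CPM at 6 months (median 0.07); at 27 months the 5 libraries above the empty range were at 3.02 to 4.13 and the 7 below it at 0.84 to 1.88. Old and young did not overlap in either set. The log2 change was 2.61 (SE 0.58, adjusted p = 4.2e-05) with all libraries and 1.48 without the 67. RT1-Bb behaved alike, at -2.80 to 0.11 at 6 months against 2.85 to 3.87 and 0.14 to 1.51 in the old libraries above and below, with a log2 change of 3.11 (SE 0.75, adjusted p = 1.6e-04), and 1.81 without the 67. In gastrocnemius the RT1-Ba change went from 1.49 to 0.92 without them and that of RT1-Bb from 1.96 to 0.74, and in soleus from 1.68 to 0.67 and from 2.98 to 1.49. All 4 were called with all libraries. Without the 67 the test cannot decide, because the libraries were left out by these genes. The soleus value of RT1-Bb also rested on 2 of the 12 young libraries with no read of it. In diaphragm the values were 1.09 (adjusted p = 0.0588) for RT1-Ba and 0.93 (adjusted p = 0.218) for RT1-Bb, and 0.11 and -0.41 without the 67: there, the old libraries below the range lay at 1.33 to 2.06 for RT1-Ba, beside 1.04 to 1.94 in the young. Over the 8 genes, 4 in tibialis anterior had every library of 27 months above every library of 6 months (RT1-Ba, RT1-Bb, Cd74 and Ciita), as did 9.57% of all genes tested there.

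The fitted changes of the peptide exchange pair lay below those of Cd74 in the 3 leg muscles but above that of Cd74 in diaphragm. Those of RT1-DMb are less certain, because its lines were unequal in 75 libraries. In tibialis anterior, RT1-DMa rose from 0.47 to 1.45 log2 CPM (median 0.90) at 6 months to 1.12 to 2.18 (median 1.71) at 27 months, a log2 change of 0.72 (SE 0.13, adjusted p = 1.8e-06), with 9 of 12 old libraries above the highest young one. RT1-DMb went from 1.88 to 2.50 (median 2.11) to 2.42 to 3.46 (median 2.77), a change of 0.71 (SE 0.19, adjusted p = 6.2e-04), and without the 67 libraries its change of 0.53 fell short of 1.5-fold. In gastrocnemius RT1-DMa changed by 0.49 (adjusted p = 0.00313) and RT1-DMb by 0.31 (adjusted p = 0.143), and in soleus by 0.32 (adjusted p = 0.101) and 0.36 (adjusted p = 0.0686). None of these 4 was called, and without the 67 libraries RT1-DMb was at 0.06 (adjusted p = 0.67) in gastrocnemius and 0.01 (adjusted p = 0.977) in soleus. In diaphragm, where RT1-DMb had a log2 change of 0.45 (SE 0.15, adjusted p = 0.0136), 6 of 12 old libraries lay above the highest young one, but the value was 0.21 (adjusted p = 0.107) without the 67 libraries. RT1-DMa was at 0.23 (adjusted p = 0.227) there, and at 0.56 (adjusted p = 0.00256) without the 67, just short of 1.5-fold.

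Ciita, the transactivator, was called with all libraries in tibialis anterior alone. Its levels were -0.52 to 1.04 log2 CPM at 6 months (median 0.41) and 1.17 to 2.30 at 27 months (median 1.98), with no overlap between the ages, and its log2 change was 1.47 (SE 0.21, adjusted p = 1.8e-09), 2.77-fold. In gastrocnemius it changed by 0.54 (SE 0.14, adjusted p = 7.5e-04), under 1.5-fold with all libraries but called without the 67 (0.61, adjusted p = 5.45e-04), in soleus by 0.39 (SE 0.19, adjusted p = 0.0708) and in diaphragm by 0.04 (95% interval -0.32 to 0.40).

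The ages between 6 and 27 months showed when the members passed the test. In tibialis anterior the counts of members called higher against 6 months were 0 at 9 months, 0 at 12, 4 at 18, 6 at 21 and 6 at 24 months, beside 0.00851%, 0.145%, 4.11%, 5.5% and 10.9% of all genes tested. Cd74 there had a median of 5.59 log2 CPM at 6 months, 6.03 at 9, 5.62 at 12, 6.08 at 18, 6.08 at 21, 6.58 at 24 and 6.98 at 27 months, so that 9 months stood above 12 months, although the change at 9 months did not pass the test (0.45, adjusted p = 0.318). From 12 to 18 months 3 members were called higher in tibialis anterior (RT1-Db1, Cd74 and Ciita, at log2 changes of 0.60, 0.64 and 0.71), as were 2.44% of all genes. The libraries of these ages belong to different number series, so age and series cannot be told apart in this step. The level at 12 months carries the same limit. With the other libraries kept, the calls from 12 to 18 months rested on 1 library, replicate 11 of 18 months, 1 of the 67. Its Cd74 level of 7.99 stood above the 5.64 to 6.84 of the other 11, as did its level in each of the other 7 members. Without that library no member was called from 12 to 18 months, and 2 in place of 4 at 18 against 6 months. With all of the 67 libraries left out, replicate 11 among them, 2 members were called from 12 to 18 months and 3 at 18 against 6 months. Any call of RT1-Ba or RT1-Bb among these rests on the choice of libraries. The count at 21 months was then 1 in place of 6.

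In gastrocnemius no member was called at 9, 12 or 21 months (0.101%, 0.489% and 4.27% of all genes), and 3 were called at 18 months (3.63%) and 3 at 24 months (11.4%), at both ages RT1-Ba, RT1-Da and Cd74. Cd74 changed there by 0.59 at 18 months, 0.52 at 21, where it fell short of 1.5-fold, and 0.86 at 24 months. In soleus none was called before 27 months (0.0493% of all genes at 9, 0.23% at 12, 1.66% at 18, 1.41% at 21 and 3.87% at 24 months); the Cd74 change was 0.31 at 9 months, 0.06 at 18 and 0.52 at 24 months (adjusted p = 0.00475). In diaphragm none was called at any age (0.0748% at 9, 0.307% at 12, 1.62% at 18, 1.12% at 21 and 2.19% at 24 months), and the group medians of Cd74 lay between 6.94 and 7.46 with no order by age.

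Fits of each gene on age gave a like picture. A gene was classed as having a trend when a linear or logistic curve had a Bayesian information criterion (BIC) more than 6 below that of a constant. A rising trend was found in 8 of 8 genes in tibialis anterior, where 33.1% of all genes had one, in 7 of 8 in gastrocnemius (28.1%), 3 of 8 in soleus (19.0%) and 1 of 8 in diaphragm (12.2%). All were linear. Slopes in tibialis anterior ran from 0.0299 log2 units per month for RT1-DMb to 0.1255 for RT1-Bb, with 0.0546 for Cd74. The gene without a trend in gastrocnemius was RT1-DMb, those with one in soleus were RT1-Ba, RT1-Da and Cd74, and the diaphragm gene was RT1-DMb. With the 67 libraries left out, RT1-DMb had no trend in diaphragm, and in soleus RT1-Ba had none (slope 0.0724 with them and 0.0175 without), RT1-Db1 had a linear one (0.0104 and 0.023) and the Cd74 trend was a late rise in place of a line. The counts in gastrocnemius and tibialis anterior were as before, but the slopes of RT1-B were lower: in tibialis anterior that of RT1-Bb went from 0.1255 to 0.0708 and that of RT1-Ba from 0.1052 to 0.055, and in gastrocnemius from 0.0864 to 0.0324 and from 0.0677 to 0.0375. The slope of RT1-DMb in tibialis anterior went from 0.0299 to 0.0181.

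Tibialis anterior started below the other muscles in most members and ended closer to them. Between diaphragm, gastrocnemius and soleus no member was called at 6 months. Of all 12784 genes tested, 2113 were called higher and 2659 lower for gastrocnemius minus diaphragm. For soleus minus diaphragm these were 1296 and 1753, and for soleus minus gastrocnemius 3075 and 2724. Without the 67 libraries RT1-Bb was at -1.83 for soleus minus diaphragm and -1.41 for soleus minus gastrocnemius. Its test cannot decide there, because the libraries were left out by this gene. At 6 months 6 of 8 members were lower in tibialis anterior than in diaphragm (22.4% of all genes tested were), 6 than in gastrocnemius (10.7%) and 5 than in soleus (24.1%). Cd74 at 6 months was lower in tibialis anterior by a log2 difference of -1.22 against diaphragm, -0.71 against gastrocnemius and -0.81 against soleus (adjusted p of 1.2e-14, 1.7e-05 and 1.4e-07). The group medians given above were scaled within each muscle and do not rank the muscles, so the joint fit is used here. At 6 months Cd74 was at -0.50 in gastrocnemius and -0.41 in soleus against diaphragm, neither over 1.5-fold, and soleus minus gastrocnemius was 0.09. At 27 months Cd74 was called between no muscles, with differences from -0.20 (tibialis anterior minus soleus) to 0.15 (soleus minus diaphragm). At 27 months, 1 member, RT1-Db1, was lower in tibialis anterior than in gastrocnemius (log2 difference -0.59, 7.61% of all genes), and 2 were higher in gastrocnemius than in diaphragm, RT1-Da at 0.61 and RT1-Db1 at 0.62 (16.6%). None of these 3 calls was made with total counts as the scaling, with a Bonferroni correction or without the 67 libraries, where RT1-Db1 was at -0.50 and 0.43 and RT1-Da at 0.50. Without them RT1-Ba, by which they were chosen, was at 0.66 for gastrocnemius minus diaphragm and at -0.61 for tibialis anterior minus gastrocnemius.

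Whether the rise to 27 months differed between muscles was itself tested, in 1 fit over all libraries. Tibialis anterior rose more than diaphragm in 4 members (13.3% of all genes): Ciita by 1.39, RT1-Da by 1.20, Cd74 by 1.17 (SE 0.21, adjusted p = 2.6e-07) and RT1-Db1 by 1.12 on the log2 scale. It rose more than soleus in 3 (10.3%), Ciita by 1.08, RT1-Da by 0.63 and Cd74 by 0.61, and more than gastrocnemius in 1 (2.27%), Ciita by 0.94 (SE 0.29, adjusted p = 0.00709). Gastrocnemius rose more than diaphragm in 3 members (13.8%): RT1-Da by 0.77, RT1-Db1 by 0.65 and Cd74 by 0.65. No difference passed for soleus against diaphragm (6.3% of all genes), where that of Cd74 missed the test, or for soleus against gastrocnemius (4.82%). When the 67 libraries were left out, RT1-Db1 passed for tibialis anterior against diaphragm (1.06) and against soleus (0.64). RT1-Ba was then at 1.36 and RT1-Bb at 2.22 for tibialis anterior against diaphragm, and RT1-Ba at 0.84 against soleus. For gastrocnemius against diaphragm RT1-Da (0.68) then passed, while RT1-Db1 (0.48) and Cd74 (0.57) did not. RT1-Ba was at 0.80 and RT1-Bb at 1.14 there, and RT1-Bb was at 1.88 for soleus against diaphragm. The 67 libraries were left out by their RT1-Ba and RT1-Bb reads, so the tests of these genes without them cannot decide on a difference. The comparisons share the libraries of a muscle, and libraries of different muscles may come from the same rats, which the fit does not use. Pairs with gastrocnemius cannot be told apart from its number series.

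Ratios between members within a library show whether the members moved in step, and they need no scaling between libraries. They were compared at 27 and 6 months in 4 muscles, 8 ratios and 32 permutation tests in all, with p adjusted over the 32 tests. Lengths were not divided out, so the ratios themselves say nothing of relative abundance. The mean of RT1-Da over Cd74 changed by -0.07 in diaphragm, 0.06 in gastrocnemius, -0.05 in soleus and -0.01 in tibialis anterior on the log2 scale, and none of the 4 passed the permutation test (adjusted p from 0.175 to 0.775). RT1-DMa over Cd74 fell by 0.63 in tibialis anterior (from -4.62 ± 0.29 to -5.25 ± 0.20, SD over 12 libraries each, permutation adjusted p = 9.6e-04), fell by 0.43 in soleus (permutation adjusted p = 0.00208) and fell by 0.35 in gastrocnemius (permutation adjusted p = 0.0411), while in diaphragm it changed by 0.11 (permutation adjusted p = 0.445). RT1-DMa reads thus fell relative to Cd74 reads in the 3 leg muscles; without the 67 libraries the gastrocnemius value of -0.36 did not pass (permutation adjusted p = 0.0802). Ciita over Cd74 changed by 0.18 in tibialis anterior, -0.36 in soleus, -0.27 in gastrocnemius and -0.11 in diaphragm, none passing after adjustment. RT1-Da over RT1-Db1 rose by 0.37 in gastrocnemius (permutation adjusted p = 0.0322), and by 0.15 without the 67 libraries, where it did not pass. RT1-Ba over RT1-Bb and RT1-DMa over RT1-DMb passed in no muscle; the values nearest to passing were -1.34 in soleus and -0.52 in tibialis anterior for RT1-Ba over RT1-Bb, with adjusted permutation p of 0.0924 and 0.0927, and without the 67 libraries these were -0.89 and -0.39.

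Cd74 was also set against genes of blood-derived cells. Over Csf1r, the receptor for the macrophage growth factor CSF1, Cd74 changed by -0.22 in diaphragm, 0.05 in gastrocnemius, 0.21 in soleus and 0.06 in tibialis anterior, and no value passed (adjusted permutation p from 0.0924 to 0.584). Over Ptprc, the pan-leukocyte phosphatase CD45, it fell by 0.43 in gastrocnemius (permutation adjusted p = 0.0271), rose by 0.39 in soleus (permutation adjusted p = 0.0411), and changed by 0.24 in each of diaphragm and tibialis anterior without passing.

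Among the libraries of an age, Cd74 varied with a definite set of genes. The likeness was Pearson's r of log2 CPM with Cd74 over the libraries of a muscle after removal of the age means, averaged over the 4 muscles, for the 11517 genes tested in all of them; it is a description over genes that share libraries and depth, and the median gene had an r of -0.02. The gene most like Cd74 was RT1-Da, at 0.96. Ciita ranked the fifth at 0.78, RT1-Db1 stood at 0.73 and RT1-DMa at 0.72, whereas RT1-Ba at 0.37, RT1-DMb at 0.31 and RT1-Bb at 0.28 followed it less. The 10 genes most like Cd74 that are not members were Lyz2 (0.80), Laptm5 (0.79), Cd68 (0.78), Fcer1g, Csf1r and Nckap1l (each 0.77), Lcp1 and Clec10a (each 0.75), Mpeg1 (0.75) and Unc93b1 (0.74). Lyz2 is lysozyme, Cd68 a lysosomal protein of macrophages, Fcer1g the shared signalling chain of Fc receptors, Clec10a a lectin of macrophages and dendritic cells, and Mpeg1 a pore-forming protein of phagocytes.

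Of 24 further genes of the class II pathway, between 16 and 20 passed the filter on low counts in a muscle. Of 6 lysosomal enzymes that cut or unfold Cd74 and antigen, 5 were called higher in tibialis anterior, 3 in gastrocnemius, 1 in soleus and 0 in diaphragm. Ctss, cathepsin S, which trims the invariant chain, changed by 1.33 in tibialis anterior, 0.89 in gastrocnemius, 0.34 in soleus and 0.27 in diaphragm, and was called in the former pair. Ctsl, cathepsin L, changed by 1.35 and 1.29 in tibialis anterior and gastrocnemius, both called, and Lgmn, the asparaginyl endopeptidase, by 1.02, 0.82 and 0.59 in tibialis anterior, gastrocnemius and soleus, all called. Ctsb (0.94) and Ifi30, the lysosomal thiol reductase (0.68), were called in tibialis anterior. Ctsd, cathepsin D, was at -0.33 in gastrocnemius and -0.23 in tibialis anterior and was called nowhere. Among the libraries of an age, the mean r with Cd74 was 0.64 for Ctss, 0.61 for Ctsb, 0.59 for Lgmn and 0.57 for Ifi30, but 0.07 for Ctsl and -0.07 for Ctsd. Cd4, the coreceptor of the responding T cells and also a rat macrophage protein, rose in the 3 leg muscles (1.26, 0.84 and 0.62 in tibialis anterior, gastrocnemius and soleus), and so did the costimulator Cd86 (0.80, 0.66 and 0.73). March1, a ligase that removes class II from the surface, was called in gastrocnemius (1.89).

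None of the DNA-binding factors that Ciita docks on was called higher. Of the RFX subunits, Rfx5 changed by 0.35 to 0.47 in the 4 muscles, with every adjusted p below 0.05 but no change over 1.5-fold, Rfxank by -0.25 to 0.03 and Rfxap by -0.15 to 0.12. Of the NF-Y subunits that bind the Y box, Nfyb fell in tibialis anterior by 0.72 (adjusted p = 7e-16), and Nfya (0.28) and Nfyc (-0.23) were not called there; Creb1 changed by -0.58 there, just short of 1.5-fold. Sppl2a, the protease that clears the Cd74 stub from the membrane, was between -0.32 and 0.12 in the 4 muscles. RT1-DOa, a chain of the RT1-DO inhibitor of RT1-DM, was called lower in diaphragm (-0.91, adjusted p = 0.0486) on a median of 7 reads, but not without the 67 libraries, and RT1-DOb was not called; neither passed the filter in soleus or tibialis anterior. Cd40 was tested in gastrocnemius alone and was at 0.01. RT1-Db2, RT1-Ha, Cd80 and Lag3 passed the filter in no muscle. In all, this list had 7 genes called higher and 1 lower of 16 tested in tibialis anterior, 6 and 0 of 20 in gastrocnemius, 3 and 0 of 16 in soleus, and 0 and 1 of 19 in diaphragm, where 10.4%, 7.76%, 5.78% and 4.25% of all genes were called lower. Its median log2 changes were 0.31, 0.43, 0.19 and 0.12.

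Interferon gamma is the textbook inducer of Ciita, and its own gene Ifng was at 0 reads in 78 of 83 libraries of diaphragm, 68 of 73 of gastrocnemius, 83 of 84 of soleus and 80 of 85 of tibialis anterior. Its receptor chains Ifngr1 and Ifngr2 changed by at most 0.55 and were not called, nor were Jak1, Irf1, Irf2 and Socs1. Genes that interferon gamma is known to induce rose in the leg muscles: Cxcl9 by 1.60 in gastrocnemius, 1.31 in tibialis anterior and 0.97 in soleus, Cxcl10 by 1.43, 1.11 and 1.32, and Irf8, which also marks macrophages and dendritic cells, by 1.31, 1.82 and 0.84. Gbp2 was called in gastrocnemius (0.67) and tibialis anterior (0.65), Tbx21, the factor of type 1 helper T cells, in gastrocnemius (1.35) and tibialis anterior (0.64), Cxcl11 in tibialis anterior (1.56) and Jak2 in soleus (0.76). Of the genes tested, 6 of 14 were called higher in tibialis anterior, 5 of 13 in gastrocnemius, 4 of 13 in soleus and 0 of 14 in diaphragm, and none lower. Il12rb2 was tested in diaphragm alone (0.80, adjusted p = 0.0611), and Il12a, Il12b, Il12rb1 and Ifng passed the filter in no muscle. The class I pathway, which presents peptides made inside the cell, had 10 of 22 genes called higher in tibialis anterior, 9 of 23 in gastrocnemius, 8 of 22 in soleus and 1 of 22 in diaphragm, and none lower. RT1-CE5, a class I heavy chain, was called in all 4 muscles (1.99, 1.80, 1.21 and 0.63), and RT1-CE7 in tibialis anterior (1.96) and gastrocnemius (1.77); reads of these near-identical genes may be shared.

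Macrophage markers were called higher in 16 of 17 genes tested in tibialis anterior, 15 of 17 in gastrocnemius, 4 of 17 in soleus and 1 of 17 in diaphragm, with none lower. Their summed level over 18 genes (all those listed) ran from 75.54 to 122.6 CPM at 6 months and from 150.5 to 327.3 CPM at 27 months in tibialis anterior, with no overlap. It went from 166.3 to 252.7 to 286.1 to 505.8 CPM in gastrocnemius, from 311.9 to 595.4 to 510.0 to 710.9 CPM in soleus and from 273.2 to 541.9 to 437.0 to 964.9 CPM in diaphragm. The medians went from 458.2 to 583.7 CPM in soleus and from 407.5 to 494.1 CPM in diaphragm, and the ranges of the ages overlapped in both muscles. Cd163, a scavenger receptor of resident macrophages, changed by 1.42, 1.09, 0.68 and 0.49 in tibialis anterior, gastrocnemius, soleus and diaphragm. The complement gene C1qc changed by 0.93, 0.61 and 0.56 in gastrocnemius, soleus and diaphragm, and by a mean of 0.90 over these and tibialis anterior. The diaphragm values of both fell short of 1.5-fold. Marco was at 0 in most libraries of each muscle. Dendritic cell markers were called higher in 6 of 9, 6 of 9, 3 of 9 and 0 of 8 genes in that order, with Ccr7 (3.69, 2.19 and 2.66) and Ccl22 (2.88, 1.86 and 2.29) called in the 3 leg muscles. Their summed level over 10 genes was 16.97 to 23.16 CPM at 6 and 23.36 to 44.55 CPM at 27 months in tibialis anterior, and 43.42 to 82.64 and 42.68 to 72.31 CPM in diaphragm. Itgax was not analysed here. The macrophage counts without the 67 libraries were 16, 16, 2 and 4 in tibialis anterior, gastrocnemius, soleus and diaphragm. The part of these cells in the class II result was not tested.

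T cell markers were called higher in 9 of 9 genes tested in tibialis anterior, 7 of 9 in gastrocnemius, 4 of 11 in soleus, where 1 was lower, and 4 of 13 in diaphragm (7 without the 67 libraries). Cd2 and Lck were called in all 4 muscles (Lck by 1.43, 1.26, 1.41 and 0.77), Cd28 in the 3 leg muscles (3.58, 4.45 and 3.69), and Gzmk in soleus (2.70). B cell and plasma cell markers were low in the leg muscles, where their 14 genes summed to at most 5.61 CPM in any library, and higher in diaphragm. In diaphragm they summed to 1.98 to 9.57 CPM at 6 months (median 3.23), up to 48.08 at 21 months, 4.36 to 37.03 at 24 months (median 11.57) and 3.01 to 27.17 at 27 months (median 4.39), beside T cell sums of 9.57 to 36.42 CPM over all ages. In tibialis anterior 1 gene was tested, Cd22, and it rose (1.94); it also rose in gastrocnemius (1.28) and soleus (0.75). Ms4a1, Pax5, Fcer2 and Tnfrsf17 were at 0 in most libraries of each leg muscle. Vpreb3 was called lower in gastrocnemius (-0.96), and 2 of 11 genes were higher in diaphragm, Derl3 (1.16) among them.

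Pan-leukocyte markers were called higher in 10 of 13 genes in each of tibialis anterior and gastrocnemius, 6 of 13 in soleus and 0 of 13 in diaphragm (3 without the 67 libraries), with Laptm5 at 1.38, 1.01, 0.66 and 0.54 and Rac2 at 1.38, 0.95, 0.97 and 0.47. Neutrophil and mast cell markers were higher in 5 of 7, 4 of 7, 1 of 9 and 3 of 9; in diaphragm the 3 included Csf3r (0.84) and Cxcr2 (0.96). Of 12 endothelial genes none was called higher in any muscle, and Kdr, the VEGF receptor, was lower in the 3 leg muscles (-0.77, -1.06 and -0.74) and Flt1 in tibialis anterior and gastrocnemius (-0.63 and -0.75). Of 9 fibroblast genes 4 were lower in diaphragm, 2 in gastrocnemius, 2 in soleus and 0 in tibialis anterior, and Col1a1 fell by 1.51, 1.89 and 1.17 in the former 3 muscles, as did Col1a2, and Lum fell in diaphragm by 0.73; Pi16 was higher in gastrocnemius (0.71) and tibialis anterior (1.32). Of 10 muscle fibre genes 3 were lower in tibialis anterior and 3 in gastrocnemius, where Ckm, the muscle creatine kinase gene, fell by 0.85 and by 0.83 (Myh7, of slow fibres, fell in tibialis anterior by 1.07), and 4 were higher in soleus, Myh1 (3.22) and Tnnt3 (2.58) among them, both of fast fibres; 1 was higher in diaphragm. In tibialis anterior the summed level of these 10 genes went from 187100 to 210700 CPM at 6 months to 81940 to 188500 CPM at 27 months.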

How the data were processed

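Ribosome-depleted total RNA of whole muscle pieces was sequenced as paired, strand-specific reads. The authors deposited raw counts per gene for each library, made with the ArrayStudio pipeline on the rat B6.0 reference and a RefSeq-based gene model. Lines of a symbol were summed. Each muscle was fitted over its 7 ages with limma-voom (limma 3.58.1, edgeR 4.0.16, R 4.3.3) after filterByExpr (minimum count 10, minimum total count 15) and TMM scaling; muscles were compared in a joint fit. Levels are log2 CPM with a prior count of 0.5, scaled within each muscle, so levels of different muscles are not on a common scale. Ratios used a pseudocount of 0.5 and two-sided permutation tests with 100000 resamples (numpy 2.4.6). DESeq2 1.42.0, edgeR's quasi-likelihood test and other settings were alternatives. The fits were tested on simulated data. The members and lists were chosen with earlier results of these data known. Named are all members, all genes of the class II and interferon lists, genes called in all 4 muscles, and the 2 with the largest mean change each way per list, with genes at 0 in most libraries. A gene of these lists that is counted but not named is not reported here. The labels do not tie libraries to animals, so p-values measure the spread between libraries.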

Additional observations from a re-analysis of the deposited data

Results flagged for a closer look

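A test of whether 2 muscles differed in their rise to 27 months (limma-voom over all libraries, adjusted p below 0.05 and over 1.5-fold) was passed for 11 combinations of a gene and 2 muscles, given here as differences on the log2 scale. For tibialis anterior minus diaphragm they were 1.39 for Ciita (SE 0.27), 1.20 for RT1-Da (SE 0.21), 1.17 for Cd74 (SE 0.21) and 1.12 for RT1-Db1 (SE 0.27). For tibialis anterior minus soleus they were 1.08 for Ciita, 0.63 for RT1-Da and 0.61 for Cd74. The only such value for tibialis anterior minus gastrocnemius was that of Ciita, 0.94. For gastrocnemius minus diaphragm they were 0.77 for RT1-Da, 0.65 for RT1-Db1 and 0.65 for Cd74. RT1-Ba, RT1-Bb, RT1-DMa and RT1-DMb had no such value in any pair. Without the 67 libraries that stand apart in RT1-Ba over RT1-Da, the last 2 of these, RT1-Db1 and Cd74 for gastrocnemius minus diaphragm, did not pass (0.48 and 0.57). Dixon's test, run for each member in the 3 groups of 10 or fewer samples, marked no library, but it looks for 1 library at a time and could not mark the 2 libraries above the empty range at 21 and at 24 months in gastrocnemius.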

How the results depend on the processing

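Of 680 values of counts and ratios under other settings, 582 stayed on the same side of the test or within 1.5 times the count. Where they did not, the cause was not tested. The shares of all genes called in each direction under these settings are not given, so the counts show only how the calls of the members moved. EdgeR's quasi-likelihood test and DESeq2 each called 2, 1 and 2 members higher in diaphragm at 21, 24 and 27 months, 2 in gastrocnemius at 21 months, 1, 2 and 2 in soleus at 18, 21 and 24 months, and 7 in tibialis anterior at 18 months; edgeR also called 6 from 12 to 18 months there, 1 for gastrocnemius minus diaphragm and 0 for tibialis anterior minus gastrocnemius at 27 months. With total counts as the scaling, which moved the median change of all genes to 0.32 in gastrocnemius, 0.16 in soleus and 0.34 in tibialis anterior, and the share of called genes that were higher to 90.0%, 77.7% and 89.1% (66.0%, 61.4% and 62.4% otherwise), the counts were 1 in diaphragm at 27 months, 2, 7 and 8 in gastrocnemius at 21, 24 and 27 months, 1 in soleus at 24 months and 2 in tibialis anterior from 24 to 27 months. Between muscles they were then 3 for soleus minus diaphragm and 7 for tibialis anterior minus diaphragm in the change, 3 lower for gastrocnemius minus diaphragm and 1 higher for soleus minus gastrocnemius at 6 months, and at 27 months 0 for gastrocnemius minus diaphragm, 0 for tibialis anterior minus gastrocnemius, and 1 lower for tibialis anterior minus each of diaphragm and soleus. RLE size factors gave 2 for the change of soleus minus diaphragm. Sample quality weights gave 1 in diaphragm at 27 months, 1 and 7 in gastrocnemius at 21 and 27 months, and 0 for tibialis anterior minus gastrocnemius at 27 months.

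A Bonferroni correction left 1 and 2 in gastrocnemius at 18 and 27 months, 1 in soleus at 27 months, 0, 0, 2 and 5 in tibialis anterior at 18, 21, 24 and 27 months and 0 from 12 to 18 months; between muscles it left 2 and 3 lower in tibialis anterior than in gastrocnemius and soleus at 6 months, 0 of the calls at 27 months, and 0 in the change for gastrocnemius minus diaphragm and for tibialis anterior minus gastrocnemius and minus soleus. A 2-fold threshold left 1, 1 and 2 in gastrocnemius at 18, 24 and 27 months, 2 in soleus at 27 months and 0, 2, 3 and 5 in tibialis anterior at 18, 21, 24 and 27 months. With no fold threshold there were 1 in diaphragm at 27 months, 3, 6 and 7 in gastrocnemius at 21, 24 and 27 months and 2 in soleus at 24 months. A BIC more than 10 below the constant left 0 trends in diaphragm. Differences of medians gave 0.24 for RT1-Da over RT1-Db1 in gastrocnemius, which no longer passed, and 0.39 for Cd74 over Ptprc in diaphragm, which then did, as did Ciita over Cd74 in gastrocnemius with a pseudocount of 5 (-0.30).

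Without the 67 libraries, a choice made after seeing the data, RT1-Bb in diaphragm at 18 months went from 0.17 to -1.04 and was the 1 member called lower. The libraries were left out by their RT1-Ba and RT1-Bb reads, so calls of these genes here and in the next counts rest on that choice. The counts were then 1 in soleus at 24 months, 1 in tibialis anterior at 21 months and 0 trends in diaphragm; between muscles, 1 for gastrocnemius minus diaphragm at 27 months, 1 lower in soleus than in each of diaphragm and gastrocnemius at 6 months, 1 higher in tibialis anterior than in diaphragm and 1 higher and 1 lower than in soleus at 27 months, and 1 and 5 in the change for soleus minus diaphragm and tibialis anterior minus soleus. The ratios RT1-Da over RT1-Db1 (0.15) and RT1-DMa over Cd74 (-0.36) in gastrocnemius no longer passed. Leaving out 1 library at a time gave 0 to 1 members at 27 months in diaphragm, 4 to 6 in gastrocnemius, 4 in soleus and 8 in tibialis anterior; without replicate 11 of 18 months, tibialis anterior had 2 at 18 months, 0 from 12 to 18 months and 1 from 24 to 27 months.

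The labels do not say which rat a library came from. Deviations of same-numbered libraries from their group means had a median correlation of 0.14, 0.199 and 0.181 between diaphragm and soleus, diaphragm and tibialis anterior, and soleus and tibialis anterior, where 35 of 83, 41 of 83 and 44 of 84 libraries correlated best with their own number, and of 0.035 to 0.083 between gastrocnemius and the others. This hints at shared rats in the former 3 muscles, but 45 of 83, 60 of 83 and 59 of 84 pairs, not every one, exceeded 0.1, so the number was not taken to pair libraries. With the replicate number as a block, the counts were 1 in diaphragm at 27 months, 1 in soleus at 21 months, 1 for gastrocnemius minus diaphragm and 0 for tibialis anterior minus gastrocnemius at 27 months, and 2 for the change of tibialis anterior minus gastrocnemius. Depth limits RT1-Bb most, with a median of 44.0 reads in a library against 3757 for Cd74.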
